A study of Mus musculus with 4 samples.

Results

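The Gm-numbered genes are mouse loci that carry a provisional symbol, the letters Gm and a serial number, given to predicted gene models before a function or a family name is assigned. They were chosen by symbol: every listed gene number whose NCBI symbol began with Gm and digits and that lay on an autosome. There were 55 such genes among the 5059 genes with a listed transcript, and none lay on a sex chromosome. The 55 were classed by RefSeq gene type and by zinc finger matches in a reading frame of their transcripts. The classes held 7 coding zinc finger genes, 16 other coding genes, 24 noncoding RNA genes and 8 transcribed pseudogenes.

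Granulocyte-monocyte progenitors, from which neutrophils and monocytes develop in the bone marrow, were sequenced as poly(A)-selected RNA from 2 libraries of MST1-deficient mice and 2 libraries of wild-type mice. Each library held progenitors pooled from 10 mice, and the sorted cells of both genotypes were placed in serum-containing medium without any drug. MST1 is the Hippo pathway kinase that Stk4 encodes in the mouse, although the labels do not name the gene, and they give no allele, strain, sex or age. Whether the pools of a genotype were separate preparations is not given, so p-values measure only the spread between these pools. The files listed only transcripts outside the reference annotation, called unannotated transcripts here, so that each value below covers those transcripts of a gene and not its annotated ones.

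Predicted gene models are a mixed class. Many Gm zinc finger genes are copies within clusters that grew by local duplication. Zinc finger proteins of the KRAB type bind DNA through their fingers and recruit the co-repressor TRIM28, and many silence transposable elements. Other Gm symbols mark readthrough transcripts, which run from one known gene into the next, and long noncoding RNAs or pseudogenes that often lie within or beside a known gene.

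The zinc finger members are shown first because the clearest genotype differences among the Gm genes lay in a pair of them. The C2H2 finger is a fold held by 2 cysteines and 2 histidines around a zinc ion. A finger was counted where a reading frame held cysteine, 2 to 4 residues, cysteine, 12 residues, histidine, 3 to 5 residues and histidine. Of the 7 members, 3 carried fingers in the coding sequence annotated by GENCODE M21: Gm13212 on chromosome 4 with 20 fingers, Gm14305 on chromosome 2 with 14 and Gm3604 on chromosome 13 with 14. The first finger of each with 2 residues between the cysteines and 3 between the histidines is given, read 5′ to 3′ from those transcripts. Capitals mark the 4 zinc-binding codons.
Gm13212: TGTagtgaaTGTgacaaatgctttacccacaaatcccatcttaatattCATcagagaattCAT
Gm14305: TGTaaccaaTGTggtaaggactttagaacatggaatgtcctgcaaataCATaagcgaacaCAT
Gm3604: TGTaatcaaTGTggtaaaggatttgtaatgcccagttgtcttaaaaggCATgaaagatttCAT
The 4 zinc-binding residues were fixed by the search, so only the last base of their codons could differ, and it did not. Of 63 bases, Gm14305 and Gm3604 differed at 25, Gm13212 and Gm3604 at 26, and Gm13212 and Gm14305 at 30. The other zinc finger members, Gm10033, Gm10509, Gm14440 and Gm20939, had no finger in an annotated GENCODE coding sequence. In the reading frame with most matches, GENCODE transcripts of Gm10033 held 22, those of Gm10509 held 6, those of Gm14440 held 9 and those of Gm20939 held 21, and RefSeq lists all 4 as protein coding.

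Gm14440 (gene 100503353, GRCm38 chr2:175275125-175286805) and Gm14305 (gene 100043387, chr2:176708353-176721813) lie 1.42 Mb apart. Their promoters, from 250 bases before to 50 bases after the start in the RefSeq table of GRCm38.p6, both on the plus strand, are printed because these genes differed between the genotypes in the same direction. The starts are the annotated ones, and the unannotated transcripts whose levels are given here may start elsewhere. Capitals mark CCAAT and its reverse complement ATTGG.
Gm14440, chr2:175274875-175275174: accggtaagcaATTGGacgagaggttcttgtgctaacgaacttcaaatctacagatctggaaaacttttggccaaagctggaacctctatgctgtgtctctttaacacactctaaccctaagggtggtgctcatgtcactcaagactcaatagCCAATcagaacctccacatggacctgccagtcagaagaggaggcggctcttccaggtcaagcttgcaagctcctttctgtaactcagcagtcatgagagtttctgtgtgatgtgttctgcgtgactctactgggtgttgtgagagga
Gm14305, chr2:176708103-176708402: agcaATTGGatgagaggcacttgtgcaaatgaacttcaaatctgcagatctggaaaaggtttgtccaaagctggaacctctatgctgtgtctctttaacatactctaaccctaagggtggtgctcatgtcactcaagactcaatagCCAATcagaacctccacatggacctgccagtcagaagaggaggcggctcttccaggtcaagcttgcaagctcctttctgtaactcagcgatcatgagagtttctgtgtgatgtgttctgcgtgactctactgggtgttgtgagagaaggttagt
The pair was identical at 280 of 293 aligned bases (95.6%), with a shared run of 133 bases. Each held the CCAAT motif once on each strand, and it was present on at least one strand in 37.4% of the 32544 promoters of that length. Neither held TATAAA on either strand, which 13.6% of those promoters did. Similar starts were common there: among 13 coding Gm genes within 2 Mb that have a promoter in the table, Gm14440 included, 7 others were at least 85% identical to it over at least 240 aligned bases. Of the 17 coding Gm genes in that window, the files listed Gm14440 and Gm14305 alone.

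Both copies had higher values in MST1-deficient than in wild-type progenitors, without overlap between the groups. Gm14440 had 10.9 and 7.65 FPKM in the MST1-deficient libraries, against 3.42 and 3.12 FPKM in the wild-type libraries, where FPKM is the authors' fragment level corrected for transcript length and sequencing depth. These came from a single unannotated transcript of 6696 bases with 493 and 428 estimated counts in MST1-deficient, against 179 and 151 in wild-type libraries. Both MST1-deficient libraries lay well above both wild-type ones. The means were 9.26 ± 2.28 FPKM and 3.27 ± 0.212 FPKM (SD, n = 2 each), and the edgeR fold change on counts was 2.92 (log2 fold change 1.54, SE 0.23). The difference did not pass the threshold of 0.05 after adjustment over all genes (edgeR adjusted p = 0.274, unadjusted 0.00153), whereas DESeq2 called it (log2 fold change 1.54, adjusted p = 0.000104). DESeq2 called 1.43% of the 3221 genes tested and edgeR 0.0%, and limma, which called 0.186%, gave Gm14440 an adjusted p of 0.497.

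Gm14305 had 9.08 and 10.7 FPKM in MST1-deficient libraries, against 3.97 and 4.10 FPKM in wild-type libraries, from a single transcript of 1746 bases. The wild-type pair lay close together and far below both MST1-deficient values. The means were 9.88 ± 1.13 FPKM and 4.04 ± 0.0919 FPKM (SD, n = 2 each), a fold change of 2.58 on counts (log2 fold change 1.37, SE 0.39). It did not pass either (edgeR adjusted p = 0.693, DESeq2 0.512, limma 0.497). For Gm14440 the unadjusted edgeR p stayed between 0.00369 and 0.0182 when each library was left out, and for Gm14305 it lay between 0.0223 and 0.108.

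How reads were divided among the copies is uncertain. All of the 50-base words in the annotated Gm14440 transcripts also occurred in another gene, most often in Gm14288, and 88.9% of those of Gm14305 did, most often in Gm14434. The pair shared few words with each other: 68 words, 2.06% of those of Gm14440 and 2.89% of those of Gm14305. The window held 6 other listed genes, looked up after these values were seen. Of these, Stx16 (log2 fold change -0.16), Gnas (0.17), Ctsz (-0.36) and 2210418O10Rik (-0.61) were tested and overlapped between the genotypes. Zfp966 was listed in the MST1-deficient libraries alone (6.79 and 9.69 estimated counts, against 0 and 0 in wild-type), while Zfp831 had 0 and 0.78 FPKM in MST1-deficient and 1.83 and 0 FPKM in wild-type libraries; neither passed the filter of at least 1 FPKM in at least 2 libraries. Stk4, the gene of MST1 (chr2:164074113-164155524), lies on the same chromosome, 11.1 Mb from Gm14440 and 12.6 Mb from Gm14305, and no unannotated transcript of it was listed. Among the 45 other tested genes within 15 Mb of Stk4, 3 had an unadjusted edgeR p under 0.05 (6.67%), as did 5.65% of all tested genes. A part of chromosomal position in the pair's values was not tested.

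None of the other 5 zinc finger members was higher in both MST1-deficient libraries than in both wild-type ones. Gm13212 had 7.70 and 3.23 FPKM in MST1-deficient libraries and 5.50 and 6.20 FPKM in wild-type libraries. Its MST1-deficient values lay on either side of the wild-type ones (log2 fold change -0.12, SE 0.44). Its 3 unannotated transcripts, of 3592, 3795 and 3614 bases, divided the level differently in each library: the form of 3614 bases made up 31.6% and 78.6% of its FPKM in MST1-deficient libraries, and 26.0% and 0% in wild-type libraries. Gm10509 had 2.25 and 1.96 FPKM in MST1-deficient and 1.68 and 2.60 FPKM in wild-type libraries (log2 fold change 0.02, SE 0.55). Gm20939 had 3.03 and 1.44 FPKM in MST1-deficient and 1.98 and 1.18 FPKM in wild-type libraries (log2 fold change 0.51, SE 0.57). Neither separated the genotypes.

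The 2 weakest zinc finger members missed the filter of at least 1 FPKM in at least 2 libraries and were not tested. Gm10033 had 0.33 and 0.23 FPKM in MST1-deficient and 0.87 and 0.94 FPKM in wild-type libraries, without overlap, but on only 5.79 and 4.81 estimated counts against 6 and 6 in wild-type libraries. A form of 999 bases made up all of its wild-type value and longer forms of 4609 and 3556 bases were listed only in MST1-deficient libraries, so the FPKM differed where the counts hardly did. Gm3604 was listed in MST1-deficient replicate 1 and wild-type replicate 2 alone, with 4.82 and 4.90 counts. Summed over all 7, zinc finger FPKM was 33.5 and 25.2 in MST1-deficient libraries, against 17.4 and 18.4 in wild-type libraries, without overlap. Without Gm14440 and Gm14305 the sum was 13.6 and 6.86 in MST1-deficient, against 10.0 and 11.2 in wild-type libraries, and the groups overlapped.

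**Figure D1:**
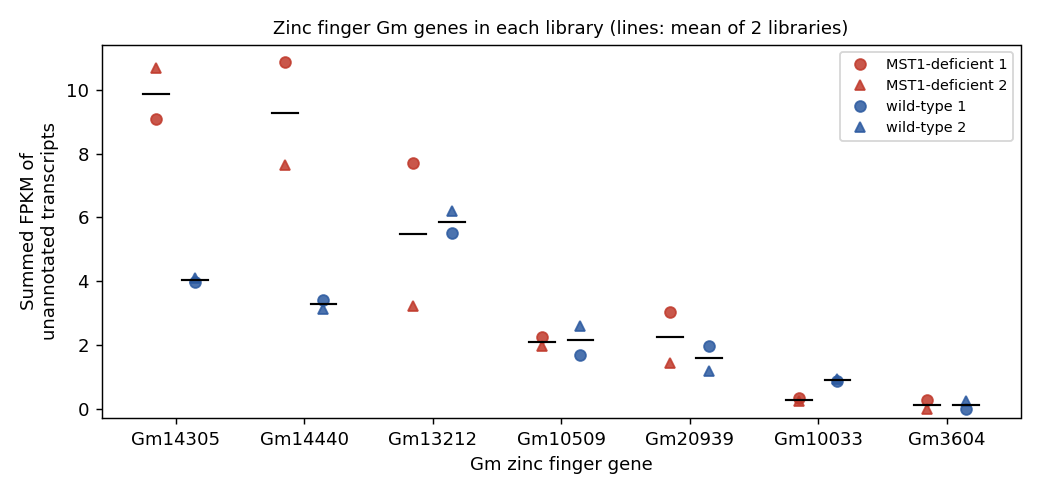
Summed FPKM of unannotated transcripts (vertical axis) of the 7 zinc finger Gm genes in each library, with MST1-deficient libraries in red to the left of wild-type libraries in blue; black lines are means of 2 libraries. Gm14305 and Gm14440 sit at 7.65 to 10.9 FPKM in the MST1-deficient libraries and at 3.12 to 4.10 FPKM in the wild-type ones, while the groups overlap for Gm13212, Gm10509, Gm20939 and Gm3604.

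Most zinc finger members lay beside a Zfp-numbered gene. Of the 7, 6 had a Zfp-numbered gene as the nearest named coding gene on at least one side, as did 2 of the other 48 Gm genes. The files listed 139 Zfp-numbered genes, of which 92 were tested. Of these, 45 had a positive and 47 a negative log2 fold change, the median was -0.01 and 0 passed with edgeR, and an unadjusted p under 0.05 was reached by 5 of the 92 with higher and 4 with lower values, shares to be set beside 3.01% and 2.64% of all tested genes. Co-repressors that act with KRAB zinc finger proteins were looked up as a list of 20 symbols. The files listed 12 of them and 8 were tested, of which 3 had a positive and 5 a negative log2 fold change (median -0.14); 0 passed with edgeR and 0 had an unadjusted p under 0.05. Trim28 itself had no listed transcript.

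The Gm genes, 55 of the 5059 listed genes, made up a small share of the counts of unannotated transcripts. Together they held 0.633% and 0.745% of the estimated counts of listed genes in MST1-deficient libraries and 0.641% and 0.595% in wild-type libraries. Their summed level was 252 and 252 FPKM in MST1-deficient, against 263 and 218 FPKM in wild-type libraries, and the groups overlapped. A few genes made up most of it: the 6 highest held 63.4% of the summed mean FPKM, 7 genes averaged at least 10 FPKM and 34 averaged under 1 FPKM. The members had 85 unannotated transcripts in all, of 407 to 12052 bases, with 1 in 37 genes and up to 5 in the other 18.

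How regularly a gene was listed differed among the classes. All 4 libraries listed 6 of 7 zinc finger genes, 14 of 16 other coding genes, 12 of 24 noncoding genes and 4 of 8 pseudogenes, against 72.8% of all 5059 genes. The median level over listed genes was 2.12 FPKM for zinc finger, 2.79 for other coding, 0.254 for noncoding and 0.358 for pseudogene members, and 1.89 for all genes. The filter passed 24 members: 5 zinc finger, 12 other coding, 6 noncoding and 1 pseudogene. Over tested genes alone the median level was 6.3 FPKM for the 24 members and 4.2 FPKM for all genes. The remaining 31 members were not tested.

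None of the 24 tested Gm genes passed with edgeR, nor did any of the 3221 genes tested (lowest adjusted p 0.112 over all genes). At an unadjusted p under 0.05 there were 3 members: Gm14440 and Gm14305, higher, where 3.01% of all tested genes were, and Gm20605, lower, where 2.64% were. The log2 fold change was above 0 in 15 of 24 members, against 51.1% of all tested genes, and the median was 0.20, against 0.01 over all genes. By class the median was 0.51 in zinc finger, 0.17 in other coding and 0.20 in noncoding members, but that of zinc finger members was 0.08 without MST1-deficient replicate 1 and -0.01 over all 7 with no filter. The median over all 24 turned to -0.06 without MST1-deficient replicate 2. The MST1-deficient libraries were both above both wild-type libraries in 3 members and both below in 4, shares to be read against 14.0% and 18.8% of all tested genes. Those above were Gm14440, Gm14305 and Gm1966, and those below were Gm20605, Gm21119, Gm867 and Gm4349.

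**Figure D2:**
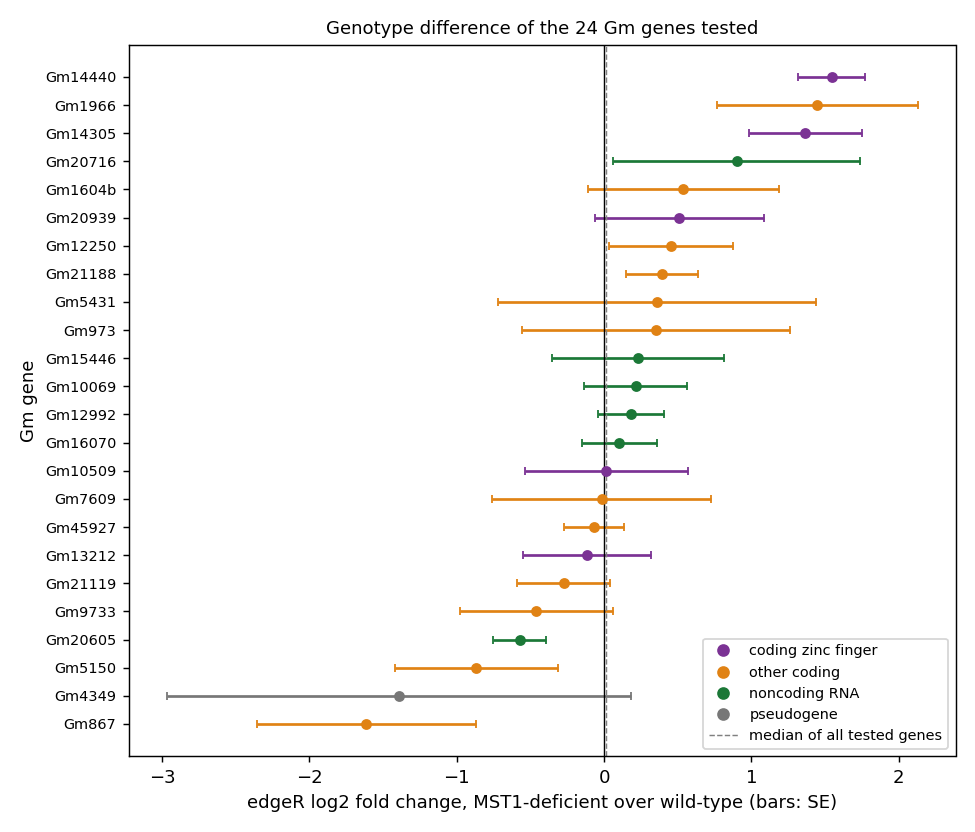
edgeR log2 fold change of MST1-deficient over wild-type (horizontal axis, bars are SE) for the 24 Gm genes tested, coloured by class, with the median of all tested genes as a dashed line. Gm14440 at 1.54, Gm1966 at 1.45 with a wider bar and Gm14305 at 1.37 stand furthest to the right. Gm867 at -1.61 and Gm4349 at -1.39, both with wide bars, stand furthest to the left. Bars clear 0 in members on both sides, among them Gm20605 at -0.57 and Gm867, and no difference passed with edgeR. Of the 6 noncoding members, 4 sit between 0.10 and 0.23.

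Among the noncoding genes the highest was Gm12992 (chr4:131899478-131920029), which overlaps the splicing factor gene Srsf4. It had 28.6 and 31.6 FPKM in MST1-deficient libraries and 28.9 and 26.7 FPKM in wild-type libraries. Its level was steady across all 4 libraries (log2 fold change 0.18, SE 0.22). Of its 2 forms, the one of 4442 bases made up 85.6% and 86.7% of the FPKM in MST1-deficient and 85.1% and 85.5% in wild-type libraries, so that the division between forms varied by less than 2 percentage points. Gm16070, which overlaps Crispld1, had 9.37 and 6.74 FPKM in MST1-deficient and 9.16 and 6.37 FPKM in wild-type libraries. Gm10069, which overlaps the protease inhibitor gene Pzp, had 6.11 and 7.19 FPKM in MST1-deficient and 5.49 and 6.55 FPKM in wild-type libraries. In both genes the 2 libraries of a genotype differed by more than the group means did. Gm15446 is noncoding in RefSeq, although GENCODE annotates a coding sequence with 16 finger matches, and lies next to Zfp932. It had 3.68 and 2.74 FPKM in MST1-deficient and 3.33 and 2.35 FPKM in wild-type libraries, with overlap.

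Gm20605 (gene 100316903, chr5:137629123-137642896) was the noncoding member with the smallest p. RefSeq gives it the synonym Lrch4-sap25, a readthrough of Lrch4, a leucine-rich repeat gene, into Sap25, which encodes a subunit of the Sin3 co-repressor complex. It had 24.9 and 19.1 FPKM in MST1-deficient libraries, against 37.2 and 30.6 FPKM in wild-type libraries. Both MST1-deficient values lay below both wild-type ones. The means were 22 ± 4.07 and 33.9 ± 4.63 FPKM (SD, n = 2 each) (log2 fold change -0.57, SE 0.18), and the difference did not pass (edgeR adjusted p = 0.773, unadjusted 0.0273). Of its annotated 50-base words, 93.6% also occurred in another gene, most often in Lrch4. No unannotated transcript of Lrch4 or Sap25 was listed. Without Gm20605 the noncoding FPKM summed to 53.7 and 55.1 in MST1-deficient, against 51.5 and 46.2 in wild-type libraries.

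Readthrough loci were a recurring kind of member. For 8 Gm genes a RefSeq synonym joined the names of 2 overlapping genes: Gm20498 (Synj2bp and Cox16), Gm20605 (Lrch4 and Sap25), Gm20716 (Dpm1 and Adnp), Gm21992 (Rbm14 and Rbm4), Gm28043 (Rnf8 and Cmtr1), Gm44502 (Chkb and Cpt1b), Gm44505 (Zfp91 and Cntf) and Gm45927 (Clk2 and Scamp3). Of the 16 partner genes, 0 had an unannotated transcript of their own in any library, so among unannotated transcripts these loci appeared under the Gm number alone. Gm45927, which joins the splicing kinase gene Clk2 to the membrane traffic gene Scamp3, had 26.0 and 24.3 FPKM in MST1-deficient and 30.3 and 24.5 FPKM in wild-type libraries over 5 forms. Its groups were nearly level (log2 fold change -0.07, SE 0.20). A form of 2232 bases was listed in MST1-deficient replicate 1 alone, with 33.9 counts.

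Gm20716, which joins Dpm1 to the chromatin gene Adnp, had 0.68 and 2.67 FPKM in MST1-deficient and 1.04 and 0.96 FPKM in wild-type libraries. Only MST1-deficient replicate 2 stood high, and the log2 fold change of 0.90 (SE 0.84) turned to -0.66 without it. Gm28043 and Gm21992 were not listed in every library. Gm28043 had 11.98 and 0 counts in MST1-deficient and 14.7 and 13.7 counts in wild-type libraries, without overlap. Gm21992 had 29.1 and 0 counts in MST1-deficient and 9.96 and 0 counts in wild-type libraries, being listed in both libraries numbered 1 and in neither numbered 2. The others were low: Gm20498 had 9.24 to 22.4 counts, Gm44505 3.86 to 23.7 counts, and Gm44502 8.12 counts in MST1-deficient replicate 1 alone.

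The highest of all Gm genes was Gm21188 (chr13:120034604-120052204), a coding member with 39.0 and 32.6 FPKM in MST1-deficient, against 33.9 and 19.4 FPKM in wild-type libraries. One wild-type library lay within the MST1-deficient range (log2 fold change 0.39, SE 0.25). Its shorter form, of 1786 bases, had 120 and 108 counts in MST1-deficient libraries, and 86.8 and 0 counts in wild-type libraries. Gm21119, whose nearest named coding genes on chromosome 8 are the defensins Defb7 and Defb33, had 11.3 and 15.1 FPKM in MST1-deficient, against 17.5 and 16.4 FPKM in wild-type libraries. The groups did not overlap, but the difference did not pass (log2 fold change -0.27, SE 0.31) and turned to 0.05 without MST1-deficient replicate 1. Of its annotated words 92.1% occurred in another gene.

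Short transcripts gave high FPKM from few reads in 3 coding members. Gm9733, next to Sirpb1a of the signal-regulatory protein family, had 1 form of 407 bases with 43.0 and 28.0 counts in MST1-deficient and 61.0 and 42.0 counts in wild-type libraries, which corresponded to 23.2 and 11.7 FPKM and to 28.5 and 20.8 FPKM. Gm1604b had 1 form of 523 bases with 14.3 and 33.1 FPKM in MST1-deficient and 16.3 and 19.8 FPKM in wild-type libraries. Gm5150, next to Sirpb1c and with forms of 1082 and 1149 bases, had 7.78 and 3.37 FPKM in MST1-deficient and 13.5 and 7.38 FPKM in wild-type libraries. In each of the 3 the range within MST1-deficient libraries spanned a wild-type value, and no difference passed.

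Gm12250 encodes Irgb10, an interferon-induced GTPase that acts on the membranes of intracellular bacteria. It had 3.83 and 5.66 FPKM in MST1-deficient and 3.47 and 3.88 FPKM in wild-type libraries, with overlap. Gm5431, with the synonym Irgb9b8 of the same family, had 2.84 and 0.28 FPKM in MST1-deficient and 1.66 and 0.68 FPKM in wild-type libraries, also with overlap. Gm1966, which lies next to the very large GTPase gene Gvin1, had 2.25 and 20.9 FPKM in MST1-deficient, against 1.69 and 2.08 FPKM in wild-type libraries. Both MST1-deficient values lay above both wild-type ones, replicate 1 by little. The high value was that of MST1-deficient replicate 2 alone and came from a form of 2781 bases with 418 counts there, 3.97 counts in wild-type replicate 2 and 0 in both libraries numbered 1. The longest form, of 10814 bases, had 140 and 60.1 counts in MST1-deficient and 144 and 130 counts in wild-type libraries. The summed log2 fold change of 1.45 (SE 0.68) did not pass and was 0.18 without MST1-deficient replicate 2.

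Gm867, a coding gene that overlaps Chchd10 on chromosome 10, had 0.52 and 0.42 FPKM in MST1-deficient, against 1.23 and 1.76 FPKM in wild-type libraries. The groups were apart, but on 5 and 5 counts against 13.7 and 18.1 counts in wild-type, and the difference did not pass (log2 fold change -1.61, SE 0.74, edgeR adjusted p = 0.932). Among the pseudogenes the highest was Gm4349, beside the histone methyltransferase gene Setdb1 and sharing 21.4% of its annotated words with another gene, most often Setdb1. It had 0 and 14.5 counts in MST1-deficient, against 20.7 and 17.6 counts in wild-type libraries (log2 fold change -1.39, SE 1.57, and -0.41 without MST1-deficient replicate 1). Gm9833, which shares 81.8% of its words with another gene, most often Myef2, had 19.99 and 0 counts in MST1-deficient and 1.76 and 0 counts in wild-type libraries. Gm16386 had 0.30 and 0.24 FPKM in MST1-deficient, against 0.70 and 0.41 FPKM in wild-type libraries, and Gm6793 had 0 and 0.23 FPKM in MST1-deficient, against 0.35 and 0.26 FPKM in wild-type libraries. Neither overlapped, on 0 to 22 counts, and neither was tested. The other pseudogenes, Gm2011, Gm3002, Gm4956 and Gm6578, had 0 to 23.3 counts in any library, with overlap.

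The remaining coding members were low and overlapped between the genotypes: Gm7609 had 0.47 to 1.35 FPKM, Gm973 0.49 to 1.35 FPKM, Gm3448 0.13 to 1.36 FPKM, and Gm5458 2 counts in each library numbered 1 alone. Among the remaining noncoding genes, Gm9920, within the Deptor locus, had 8 and 9 counts in MST1-deficient and 0 and 7 counts in wild-type libraries, without overlap. The others named here, Gm10371, Gm10432, Gm10516, Gm10684, Gm10791, Gm11201, Gm15401, Gm15612, Gm15816, Gm16982 and Gm5084, had 0 to 32 counts in a library and overlapped. None of these noncoding genes was tested.

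Listing followed genotype in 2 members, 1 in each direction (1.82% of the Gm genes each). Gm11110, a noncoding gene that overlaps Tnfsf9, was listed in both MST1-deficient libraries (2 and 5.32 counts) and in neither wild-type one, as were 1.4% of all 5059 genes. Gm29683, another noncoding gene, was listed in both wild-type libraries (1.44 and 1.01 counts) and in neither MST1-deficient one, as were 1.25% of all genes. All but the value of 5.32 stayed under a floor of 3 counts per library that was set here, and no fold was computed. By comparison, 3 members (5.45%) were listed in both libraries numbered 1 and in neither numbered 2, a pattern of 1.9% of all genes, and 0 showed the reverse, a pattern of 0.75% of all genes.

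**Figure D3:**
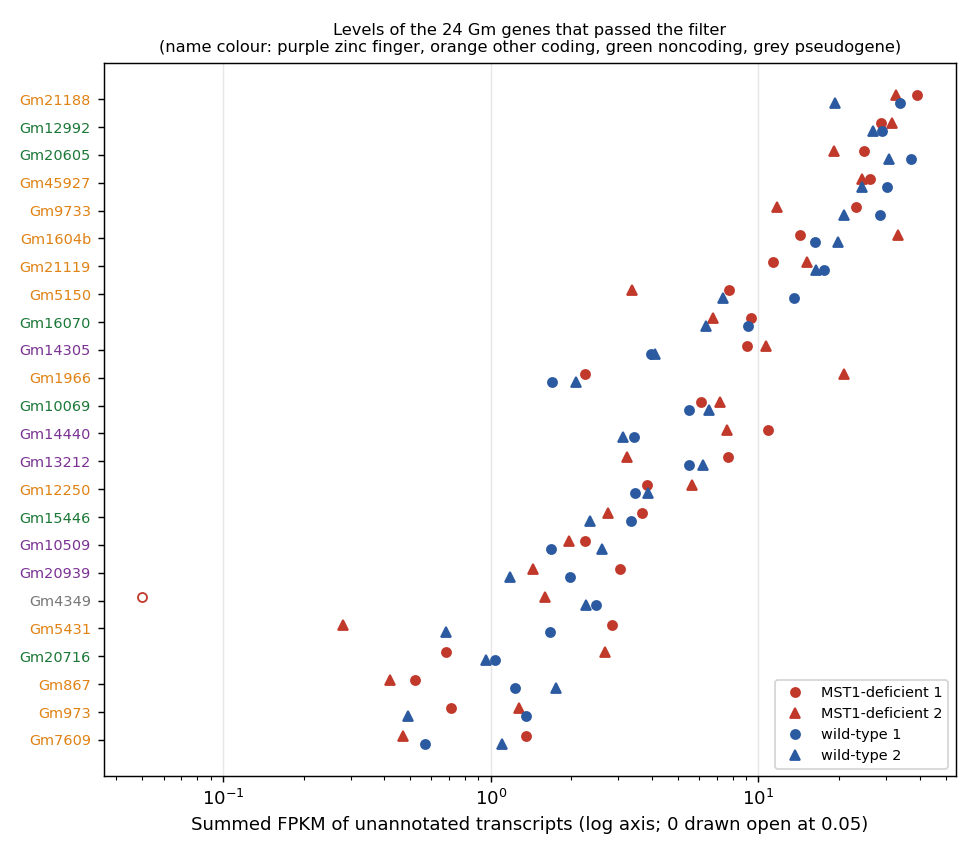
Summed FPKM (log axis) of each of the 24 tested Gm genes in every library, ordered by mean level and coloured by genotype, with MST1-deficient libraries drawn above wild-type ones; a value of 0 is an open symbol. Levels run from 39.0 FPKM for Gm21188 down to under 1 FPKM in single libraries, and Gm14305 and Gm14440 separate the genotypes while Gm12992 is level.

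Shared sequence was common and differed among the classes. For the 53 members matched to GENCODE M21, the median share of 50-base words found in another gene was 23.1% in zinc finger, 31.6% in other coding, 0.56% in noncoding and 26.2% in pseudogene members. In 15 members more than 50% of the words were shared and in 15 none were. Of the 55 members, 37 overlapped another RefSeq gene. The strandedness of the libraries is not given in the sources used here, so reads of a gene that overlaps on the other strand cannot be told apart.

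**Figure D4:**
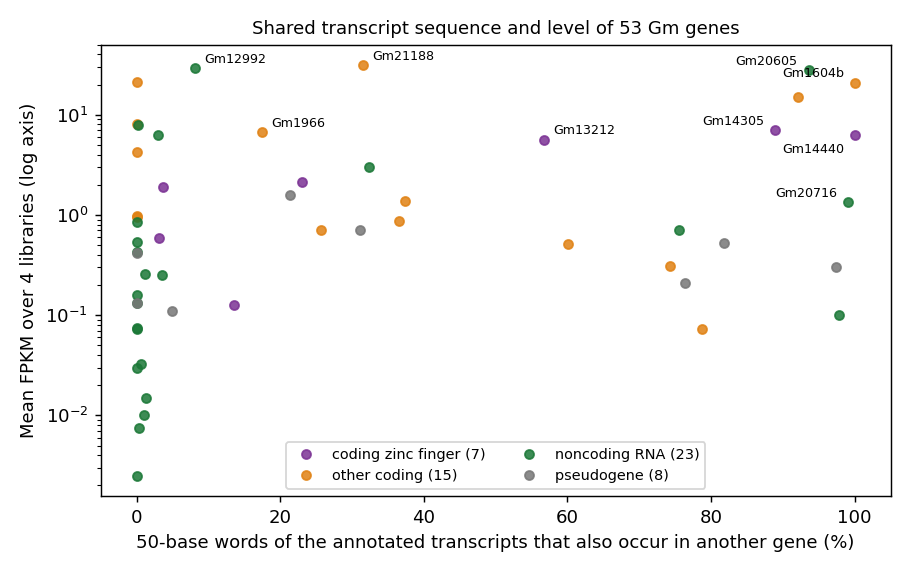
Share of the annotated transcripts' 50-base words that also occur in another gene (horizontal axis, %) against mean FPKM over the 4 libraries (log axis) for 53 Gm genes, coloured by class. Gm14440 at 100% and Gm14305 at 88.9% lie at the right edge with Gm20605, whereas Gm12992 at 8.14% and many noncoding genes lie at the left.

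The libraries held between 928977 and 1079382 estimated counts in listed transcripts. Some sums over markers of other cells differed between the groups without overlap. Summed FPKM of the listed T and NK markers, 2 of 5 with Cd3e, Lck and Nkg7 absent, was 4.23 and 4.34 in MST1-deficient, against 19.7 and 22.3 in wild-type libraries. Only 1 of these 2 was listed in all 4 libraries, and the other in MST1-deficient replicate 1 alone. The difference in this sum thus lay in 1 gene. Summed FPKM of the listed erythroid markers, 4 of 6 with Gata1 and Klf1 absent, was 18.5 and 7.84 in MST1-deficient, against 23.6 and 30.7 in wild-type libraries. Of the 3 tested, 2 had a negative and 1 a positive log2 fold change, and in only 1 did the groups not overlap. For the listed eosinophil, basophil and mast cell markers, 2 of 5 with Prg2, Cpa3 and Mcpt8 absent, the sum was 25.4 and 34.6 in MST1-deficient, against 44.0 and 59.4 in wild-type libraries. The groups overlapped for the 3 listed B lineage markers (9.46 and 8.42 FPKM in MST1-deficient, 22.3 and 1.72 FPKM in wild-type libraries). They also overlapped for the 1 listed megakaryocyte marker (41.4 and 33.8 FPKM in MST1-deficient, 34.7 and 42.8 FPKM in wild-type libraries). Of 14 progenitor markers 3 were listed, and Mpo, Elane and Cebpa were not. The Y chromosome genes Ddx3y, Uty, Kdm5d and Eif2s3y summed to 23.4 and 14.8 FPKM in MST1-deficient, against 3.6 and 0 FPKM in wild-type libraries. The labels give no sex of the mice, so a difference in the sex of the pooled mice cannot be told apart from genotype. The part of the marker sums and of the Y chromosome genes in the values of the Gm genes was not tested. For the cell type markers, fewer cells of a type cannot be told apart from less RNA per cell.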

How the data were processed

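The 4 deposited transcript tables were used, 1 per library. The authors deposited estimated counts (expected counts) and FPKM per unannotated transcript, per the file headers; the submitters' processing notes name the mm10 build. Not given in the sources used here are the aligner, the assembler, the estimator and the strandedness. Estimated counts and FPKM were summed per gene, with 0 where a transcript was not listed, and gene numbers were matched to a RefSeq table of GRCm38.p6 (5051 of 5059 matched); 274 unannotated loci were left out. Library totals implied by FPKM, count and length were 6758640 and 8326785 for MST1-deficient and 7789169 and 7233355 for wild-type replicates 1 and 2.

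Genotypes were tested on rounded counts in R 4.3.3 by the 2-sided quasi-likelihood test of edgeR 4.0.16 with TMM factors, over the 3221 genes with at least 1 FPKM in at least 2 libraries, with Benjamini-Hochberg adjustment over all of them and a threshold of 0.05; SEs were taken from the F statistic. DESeq2 1.42.0 and limma 3.58.1 on log2(FPKM + 0.5), which understates changes of low genes, were alternatives. The tests were checked on simulated counts. An exact permutation test of 2 against 2 cannot go below 0.33, so single sums were not tested.

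Finger matches were sought in GENCODE M21 transcripts, in the reading frame with most matches, because no RefSeq protein was used here; at least 3 in a RefSeq protein-coding gene made a zinc finger gene. Named genes were all zinc finger members, the 6 highest of each other class, the 5 smallest p in each direction without overlap, and members listed in 1 genotype alone. The other members mentioned and the listed neighbours of Gm14440 were added after their values were seen. The members and lists were chosen with earlier results of these data known. The values of 1 untested noncoding member are not reported here, for a reason unrelated to its values.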

Additional observations from a re-analysis of the deposited data

How the results depend on the processing

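No Gm gene passed with edgeR under any normalisation, filter or left-out library, with a lowest adjusted p among named genes of 0.219 (Gm14440, without MST1-deficient replicate 2), and DESeq2 called 1, Gm14440. Over all genes edgeR called 0 (182 at an unadjusted p under 0.05), DESeq2 46, limma 6, limma with a pseudocount of 0.1 or 1 called 2 or 7, and limma with median centring 4; without single libraries edgeR called 0 of all genes and 0 Gm genes. The median log2 fold change of tested Gm genes, 0.20, ranged from -0.056 (without MST1-deficient replicate 2) to 0.23 when libraries were left out, where a lone library is assumed to vary like the other group. That of zinc finger members, 0.51 over 5 genes, was -0.01 over 7 with no filter and ranged from 0.08 to 0.85 over left-out libraries. The number of zinc finger members was 7 with at least 1 or at least 3 finger matches and 3 by the annotated coding sequence alone, chosen after seeing the data. Of 20 named genes tested, 11 kept their direction under all 15 alternatives, among them Gm14440, Gm14305 and Gm20605. Gm10509, with a main value of 0.02, was -0.026 with implied library totals, -0.002 with a pseudocount of 1, -0.007 with no filter and -0.004 with a filter of 10 counts. The other sign changes came from leaving out 1 library: Gm13212 ranged from -0.679 to 0.288, Gm10509 from -0.332 to 0.463, Gm45927 from -0.155 to 0.013, Gm1604b from -0.45 to 1.117, Gm21119 from -0.689 to 0.047, Gm12992 from -0.058 to 0.39, Gm16070 from -0.063 to 0.292, Gm10069 from -0.089 to 0.466 and Gm20716 from -0.658 to 1.631. The cause was not tested. With the replicate number as a block edgeR called 0 genes, with Gm14440 at a log2 fold change of 1.54 (adjusted p = 0.512); the deviations of same-numbered libraries correlated at 0.127 over genes, and the numbers are not stated to pair the samples. Low counts limit the 31 members that missed the filter.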
